A study of Mus musculus with 29 samples.

Results

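The 35 genes described here are induced by interferons in many mouse cells. They were chosen by name: a probe on the array counted where its gene name, or the current symbol of its accession, was one of the 35. A probe was found for 34 of them, out of 27670 gene names on the array, and Xaf1 was not analysed here. Of the 34 genes, 19 had 1 probe and 15 had more, with 50 probes in all. Where there were several, the probe with the highest mean over the arrays was taken. In the scanner files Gbp3 is listed under the name Gbp4, Irf9 under Isgf3g, Dhx58 under D11Lgp2e and Cmpk2 under Tyki.

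The uteri came from female CD-1 mice, an outbred stock. Genistein (GEN), a plant isoflavone that binds estrogen receptors, had been given to the newborn pups from postnatal day 1 through day 5 at a daily dose of 50 mg per kg, and controls (CON) had received the corn oil vehicle on the same days. Uteri were collected on gestation day (GD) 1.5, with 4 GEN and 3 CON samples, on GD3.5, with 3 GEN and 3 CON samples, on GD4.5, with 4 and 4, and on GD5.5, with 4 and 4. The study concerns failed implantation after this exposure. The labels do not say whether each sample was a separate animal, so the p-values below measure the spread between samples, which may in part be technical. No age at collection was used here.

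Interferons are secreted proteins that cells release on meeting viral nucleic acid or on immune activation. Type I and type III interferons act through Janus kinases on a transcription factor complex that holds STAT2 and IRF9 and binds the interferon-stimulated response element (ISRE) in the promoters of target genes. Interferon gamma, which uterine natural killer cells secrete in early pregnancy, acts at gamma-activated sites (GAS), and many genes respond to both kinds. In ruminants the conceptus itself secretes a type I interferon, an interferon that mice lack. The 34 genes cover the signalling and transcription factors of the response (Stat2, Irf9, Irf7, Irf1), sensors of foreign nucleic acid (Ifih1, Dhx58, Zbp1, Eif2ak2), the oligoadenylate synthetase family that activates RNA decay (Oas1a, Oas1g, Oas2, Oas3, Oasl1, Oasl2), the RNA-binding IFIT family (Ifit1, Ifit2, Ifit3), antiviral large GTPases (Mx1, Mx2, Gbp2, Gbp3), the ubiquitin-like modifier Isg15 with its protease Usp18 and the ligase Trim25, other effectors (Rsad2, Cmpk2, Bst2, Isg20, Ifi35, Ifi44, Rtp4) and antigen-processing proteins (Psmb8, Psmb9, Tap1).

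RefSeq promoter windows, from 250 bases before to 50 bases after the gene start on build GRCm38.p6, were at hand for 28 of the 35 genes. An ISRE core, searched as GAAANNGAAA on both strands, lay in the windows of 13 of the 28 genes (46.4%), against 3.99% of all 27025 genes in the table. A GAS core, searched as TTCNNNGAA on both strands, lay in 8 of the 28 (28.6%), against 9.55% of all genes. A match describes the letters and not a bound site. The stretches below are shown because they hold the ISRE core of genes whose levels are described further on. Capitals mark the matched bases and lower case their neighbours, written 5′ to 3′ on the strand of the gene, so a core on the other strand reads as its reverse complement.
Isg15: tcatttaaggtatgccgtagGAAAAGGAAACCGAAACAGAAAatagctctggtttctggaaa
Stat2: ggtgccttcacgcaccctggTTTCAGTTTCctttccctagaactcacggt
Gbp2: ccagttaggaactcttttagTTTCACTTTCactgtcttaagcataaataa
Gbp3: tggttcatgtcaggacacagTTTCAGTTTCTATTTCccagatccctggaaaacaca
Ifit1: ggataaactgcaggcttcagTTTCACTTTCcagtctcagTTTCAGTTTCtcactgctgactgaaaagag
Bst2: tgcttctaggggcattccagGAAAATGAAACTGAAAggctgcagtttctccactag
Oas1a: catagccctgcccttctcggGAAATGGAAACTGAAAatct
Oas1g: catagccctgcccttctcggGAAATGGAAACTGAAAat

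The Isg15 stretch lies at chr4:156200855-156200916 on the minus strand and holds 3 overlapping cores. The Stat2 stretch is chr10:128270256-128270305 on the plus strand, with 1 core. The Gbp2 stretch is chr3:142620584-142620633 and the Gbp3 stretch chr3:142559979-142560034, both on the plus strand, and the core starts at position -59 relative to the start of Gbp2, and those of Gbp3 at -45 and -39. Ifit1 has 2 separate cores in chr19:34640765-34640833 on the plus strand. The Bst2 stretch is chr8:71537567-71537622 on the minus strand, with 2 overlapping cores. The Oas1a stretch, chr5:120907526-120907565, and that of its close relative Oas1g, chr5:120887614-120887651, both on the minus strand, carry the same capitals. In Ifih1 and Eif2ak2 the only core lay after the gene start, at positions 33 and 19.

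All values are log2 levels of a probe relative to the 75th percentile of its own array, so 0 is the level of that percentile, and levels of different genes are not compared. Well above background is the scanner's own call for a spot. Among the 34 genes, 31 were well above background on all 29 arrays, Oas3 on 27, Mx1 on 24 and Oas1g on 3. Arrays of GD1.5 and GD3.5 lay on slides 1 to 4, and those of GD4.5 and GD5.5 on slides 5 to 8, so the step from GD3.5 to GD4.5 cannot be told apart from a change of slide and no test of it was made. On the 13 arrays of slides 1 to 4, 71.3 to 78.1% of spots were well above background, against 65.5 to 80.9% on the 16 arrays of slides 5 to 8. All 7 genes of uterine identity (Pgr, Esr1, Hoxa10, Hoxa11, Hand2, Wnt7a, Msx1) were well above background on all 29 arrays. A gene was called changed at an adjusted p under 0.05 in limma's moderated test, with Benjamini-Hochberg adjustment over all genes tested in that comparison.

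By group means, 30 of the 34 genes had their highest mean at GD1.5 and 26 their lowest at GD5.5 in GEN uteri, and in CON uteri these counts were 22 and 27. Those days lay on different slides, so this order cannot be told apart from the slides. As a summary, each gene was centred on its mean over the 29 arrays and the median over the 34 genes was taken on each array. At GD1.5 it was 1.10, 0.75, 0.41 and 0.46 on the GEN arrays, while 1 of the 3 CON arrays, CON 3, stood apart at 1.88, against 0.28 on the next highest, and the median of the CON arrays was not highest at GD1.5 (0.28) but at GD4.5 (0.33). At GD3.5 the GEN arrays stood at 0.44, -0.07 and -0.30 and the CON arrays at 0.17, 0.26 and 0.12. At GD4.5 the GEN arrays stood between -0.48 and 0.03, and the CON arrays between -0.19 and 0.91. At GD5.5 the GEN arrays ranged from -1.21 to -0.29 and the CON arrays from -1.30 to -0.41, so on this measure every GD5.5 array of either exposure was below the lowest GD4.5 CON array, while GEN 3 at GD5.5 lay above GEN 1 and level with GEN 3 at GD4.5.

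**Figure D1:**
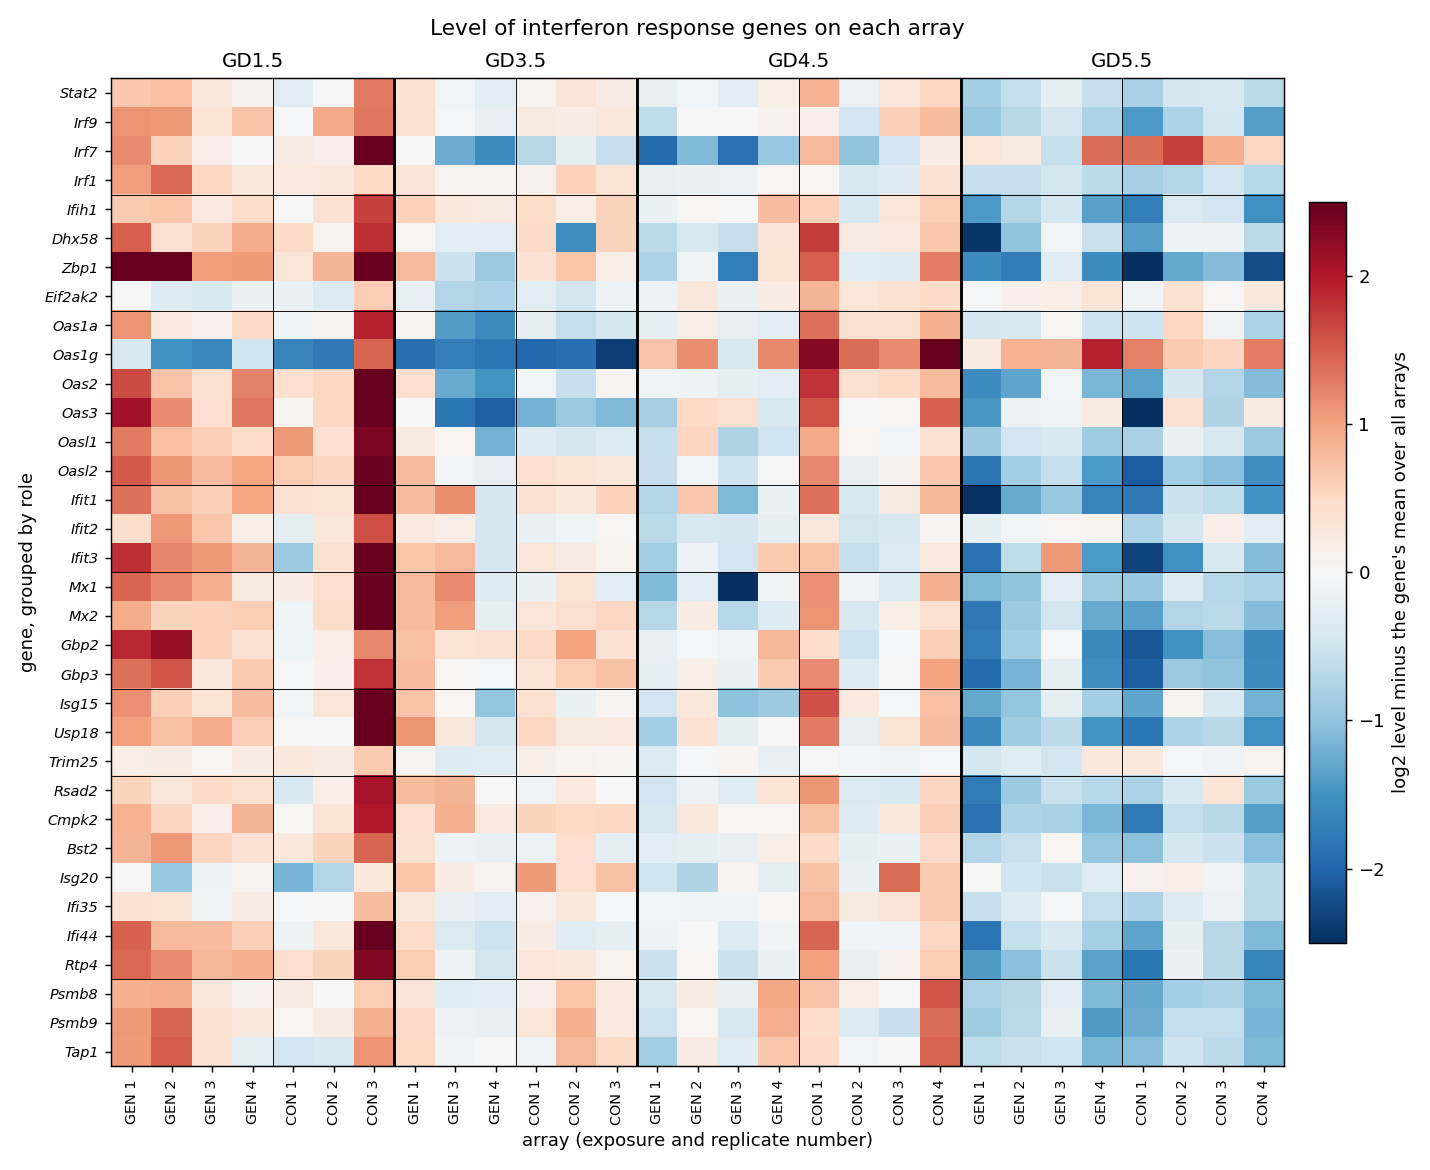
Log2 level of each of the 34 genes minus its own mean over the 29 arrays, shown as colour, with genes in rows by role and arrays in columns by gestation day, GEN left of CON on each day. The column of GD1.5 CON 3 has a median of 1.88 and the GD5.5 columns have medians between -1.30 and -0.29.

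At GD4.5, the day on which implantation normally begins in mice, each of the 33 genes tested had a lower mean in GEN than in CON uteri, but not 1 of them passed the test (0.116% of all genes were called). A difference below 0 was found for 56.7% of all genes. The median log2 difference was -0.57 over the 33 genes and -0.04 over all genes, and 18 of the 33 had a difference of -0.5 or lower, as did 13.1% of all genes. Before adjustment, 8 of the 33 had a p under 0.05, against 9.54% of all genes, and all 8 were lower in GEN, as were 7.15% of all genes. The arrays of the exposures did not overlap, GEN lower, in 4 genes: Ifi35, Eif2ak2, Oas1a and Oas2, as in 2.88% of all genes.

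Isg20, an exonuclease that degrades single-stranded RNA, had the smallest p of these genes. Its log2 levels were 1.80, 1.55, 2.39 and 2.07 in GEN uteri, against 3.04, 2.13, 3.70 and 2.95 in CON uteri. Only GEN 3 reached above the lowest CON array, CON 2. The difference was -1.0 (SE 0.31, adjusted p = 0.246), a level 2.00-fold lower in GEN, and a second probe of the gene gave -0.99. The probe lies at chr7:74779788-74779847 on the plus strand of build mm7 (NCBI35), the build of all probe positions given here.

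Ifi35, an interferon-induced leucine zipper protein, stood at 1.59, 1.56, 1.57 and 1.69 in GEN uteri, against 2.48, 1.89, 2.00 and 2.31 in CON uteri. All GEN arrays lay below all CON arrays, and the GEN values were close together. The difference was -0.57 (SE 0.19, adjusted p = 0.272), between -0.84 and -0.44 on the 3 slides with arrays of each exposure (probe at chr11:101566736-101566795, plus strand).

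Irf7, the transcription factor that amplifies the type I response, stood at -1.65, -0.80, -1.56 and -0.64 in GEN uteri, against 1.11, -0.71, -0.18 and 0.49 in CON uteri. CON 2 lay between the GEN arrays. The difference was -1.34 (SE 0.51, adjusted p = 0.359), and it was below 0 on each of the 3 slides.

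Isg15, which is conjugated to other proteins in the interferon response, stood at 0.47, 1.2, -0.09 and 0.04 in GEN uteri, against 2.56, 1.19, 0.92 and 1.69 in CON uteri. GEN 2 and CON 2 were alike, and CON 3 also lay below GEN 2. The difference was -1.19 (SE 0.48, adjusted p = 0.407), and within slides it ran from -2.31 to 0.28. The only probe of Isg15 has its design position on chromosome 17 of build mm7 (NCBI35), whereas the promoter shown above lies on chromosome 4. Which transcripts this probe binds was not tested, and this limit holds for all Isg15 values here.

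Mx1, a dynamin-like GTPase that blocks influenza virus, stood at -5.94, -5.12, -8.06 and -4.92 in GEN uteri, against -3.70, -4.95, -5.18 and -3.96 in CON uteri. GEN 3, the lowest array, was not well above background. The difference was -1.56 (SE 0.60, adjusted p = 0.366). A second probe of Mx1 gave -0.69.

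Eif2ak2, the kinase PKR that halts translation on binding double-stranded RNA, stood at 0.80, 1.2, 0.73 and 1.13 in GEN uteri, against 1.77, 1.22, 1.29 and 1.40 in CON uteri. The groups did not overlap, though GEN 2 and CON 2 were almost level. The difference was -0.46 (SE 0.19, adjusted p = 0.407).

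Oas1a stood at 0.92, 1.30, 0.95 and 0.88 in GEN uteri, against 2.53, 1.55, 1.56 and 2.05 in CON uteri, with no overlap and a difference of -0.91 (SE 0.39, adjusted p = 0.436). Oas2 stood at -0.58, -0.62, -0.72 and -0.77 in GEN uteri, and in CON uteri from -0.09 in CON 2 to 1.32 in CON 1, again with no overlap (difference -1.06, SE 0.47, adjusted p = 0.473). Probes of the closely related Oas genes may bind transcripts of one another. Oas1g was well above background on no GEN array and on 2 of the 4 CON arrays at GD4.5. Its measured means were -6.98 in GEN and -5.81 in CON, but arrays not well above background enter both, so no fold is given. It was not among the 33 genes tested.

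By role, the median difference at GD4.5 was -0.85 over the 5 oligoadenylate synthetase genes tested, -0.75 over the sensors, -0.74 over Isg15, Usp18 and Trim25, -0.57 over the other effectors, -0.53 over the large GTPases, -0.47 over the antigen-processing genes, -0.43 over the signalling and transcription factors and -0.32 over the IFIT family. The differences nearest 0 were those of Gbp2, a guanylate-binding protein (-0.0033, SE 0.41), Irf1, a transcription factor of the interferon gamma response (-0.04, SE 0.19), and Trim25, a ubiquitin ligase of the RIG-I pathway (-0.07, SE 0.14). Further probes that were well above background on every array existed for 8 genes, and 6 gave a difference of the same sign. The exceptions were Ifit2 (0.27) and Ifit3 (0.22).

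The slides did not all give the GD4.5 pattern. On slide 5, which held GEN 1, GEN 4 and CON 1, all 33 genes were lower in GEN, with a median of -1.10. On slide 8, with GEN 3 and CON 4, 32 of 33 were lower (median -1.04). On slide 6, with GEN 2 and CON 3, 15 of 33 were lower and the median was 0.02. There were 15 genes lower in GEN on all 3 slides.

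**Figure D2:**
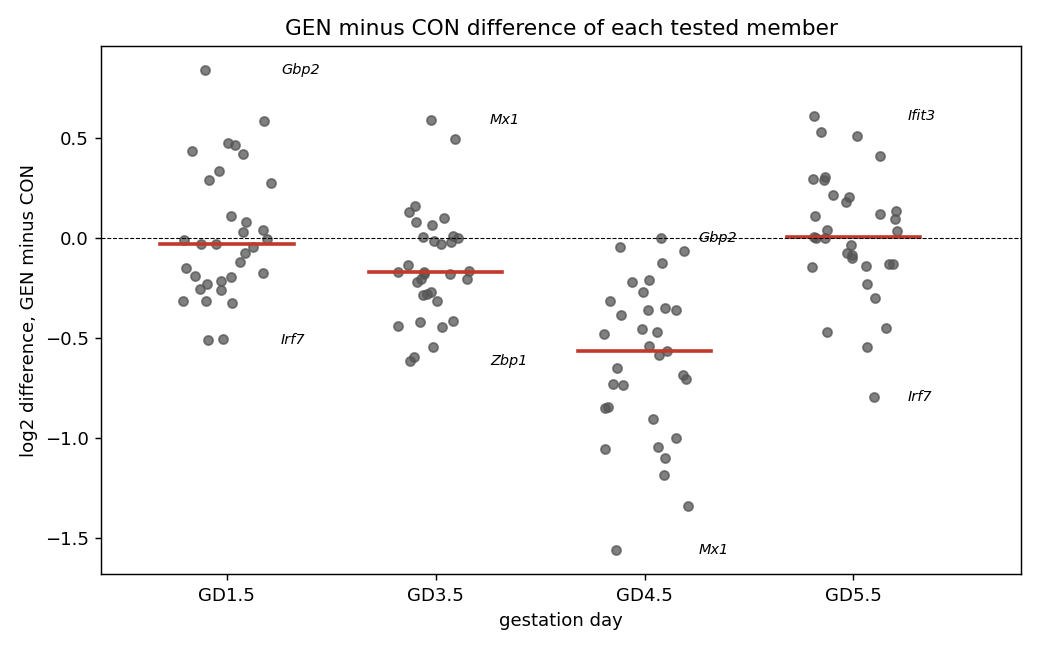
GEN minus CON log2 difference of each of the 33 genes tested (grey points), by gestation day, with the median as a red line and the lowest and highest genes named. All points lie below 0 at GD4.5 (median -0.57), and the medians of the other days lie between -0.17 and 0.00.

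On the other 3 days, none of the 33 genes tested was called between GEN and CON uteri (0.0975% of all genes called at GD1.5, 0.103% at GD3.5 and 0% at GD5.5). Same-numbered GEN and CON arrays of GD5.5 deviated together, and with the replicate number as a block on that day 17 genes of the array were called, with 0 of the 33 among them. At GD1.5 the median difference was -0.03, with 20 genes below 0 (52.4% of all genes) and 13 above, and 1 gene, Irf1, had an unadjusted p under 0.05 (6.14% of all genes). Irf1 had the smallest p: it stood at 4.48, 4.86, 3.93 and 3.68 in GEN uteri, against 3.66, 3.69 and 3.93 in CON uteri (difference 0.48, SE 0.21, unadjusted p = 0.0303, adjusted p = 0.707). Gbp2 differed by 0.84 (SE 0.45), Tap1, a subunit of the antigen peptide transporter, by 0.58 (SE 0.44) and Trim25 by -0.22 (SE 0.15). The CON arrays were far apart on this day: Ifit3 stood at -0.84, 0.47 and 2.99, and Usp18, the protease that removes Isg15, at -0.10, -0.11 and 2.62, CON 3 being highest each time. Without CON 3 the median difference at GD1.5 was 0.56, and on slides 1 and 2, the second of which held CON 3, 4 and 31 of the 33 genes were lower in GEN.

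At GD3.5 the median difference was -0.17, with 24 of the 33 genes below 0 (55.4% of all genes), and 0 had an unadjusted p under 0.05 (5.54% of all genes). The smallest p values were those of Trim25 (-0.29, SE 0.16), Eif2ak2 (-0.28, SE 0.22), Psmb8, an immunoproteasome subunit (-0.45, SE 0.36), and Oas1a (-0.55, SE 0.45), with adjusted p of 1.00 each. Without GEN 4 the median was 0.02, and on slides 1 and 3, 4 and 31 of the 33 genes were lower in GEN.

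At GD5.5 the differences were spread evenly around 0, with 16 genes below (51.3% of all genes) and 17 above and a median of 0.0022, and 1 gene, Trim25, had an unadjusted p under 0.05 (5.4% of all genes). Trim25 stood at 2.69, 2.81, 2.64 and 3.40 in GEN uteri, against 3.39, 3.1, 3.03 and 3.21 in CON uteri, so that GEN 4 alone reached the CON range (difference -0.30, SE 0.14, unadjusted p = 0.0444, adjusted p = 0.899). Irf7 stood at 0.60, 0.52, -0.29 and 1.69 in GEN uteri, against 1.69, 2.00, 1.19 and 0.82 in CON uteri (difference -0.79, SE 0.51). Rsad2, the radical SAM enzyme viperin, differed by -0.55 (SE 0.41), and Gbp2 by 0.53 (SE 0.41). The slides again differed: 26, 4 and 7 of the 33 genes were lower in GEN on slides 6, 7 and 8.

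Averaged over the 4 days, 30 of the 34 genes were below 0, against 57.5% of all genes, with a median of -0.19. None was called (1.04% of all genes were), and 4 had an unadjusted p under 0.05 (9.91% of all genes). Trim25 had a mean difference of -0.22 (SE 0.07, adjusted p = 0.218), Irf7 of -0.77 (SE 0.27, adjusted p = 0.234), Eif2ak2 of -0.25 (SE 0.10, adjusted p = 0.334) and Oas1a of -0.43 (SE 0.20, adjusted p = 0.497). Each of these 4 genes had a lower mean in GEN than in CON on each of the 4 days, as had others of the set such as Oas2 and Isg15. At GD1.5 this rested on the highest CON array for Irf7 (2.90), Oas1a (3.08), Oas2 (2.34) and Isg15 (3.54). The other CON arrays lay below the GEN mean: 0.43 and 0.50 against 0.76 for Irf7, 1.07 and 1.26 against 1.65 for Oas1a. They stood at -0.08 and 0.03 against 0.50 for Oas2, and at 0.87 and 1.25 against 1.66 for Isg15. For Eif2ak2 the highest CON array stood at 1.55 and the others at 0.55 and 0.76, around the GEN mean of 0.70.

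Whether the GEN to CON difference itself changed between successive days was tested as an interaction, and no gene of the 35 was called in any of the 3 steps (0%, 0% and 0.00443% of all genes called). In each step 1 of the 33 genes tested had an unadjusted p under 0.05 (2.36%, 4.74% and 7.37% of all genes). Successive steps share the groups of the day between them. From GD4.5 to GD5.5 the GEN to CON difference was higher at GD5.5 in 31 of 33 genes and below 0 in 2 (44.4% of all genes), with a median of 0.60, and Ifi35 had the smallest p (0.66, SE 0.26, unadjusted p = 0.0192, adjusted p = 0.611), followed by Zbp1, a sensor of Z-form nucleic acid (1.61, SE 0.89). From GD3.5 to GD4.5 the median was -0.40, and Mx1 had -2.15 (SE 0.92, unadjusted p = 0.0279, adjusted p = 0.990). From GD1.5 to GD3.5 the median was -0.07, and Irf1 had -0.66 (SE 0.30, unadjusted p = 0.0402).

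**Figure D3:**
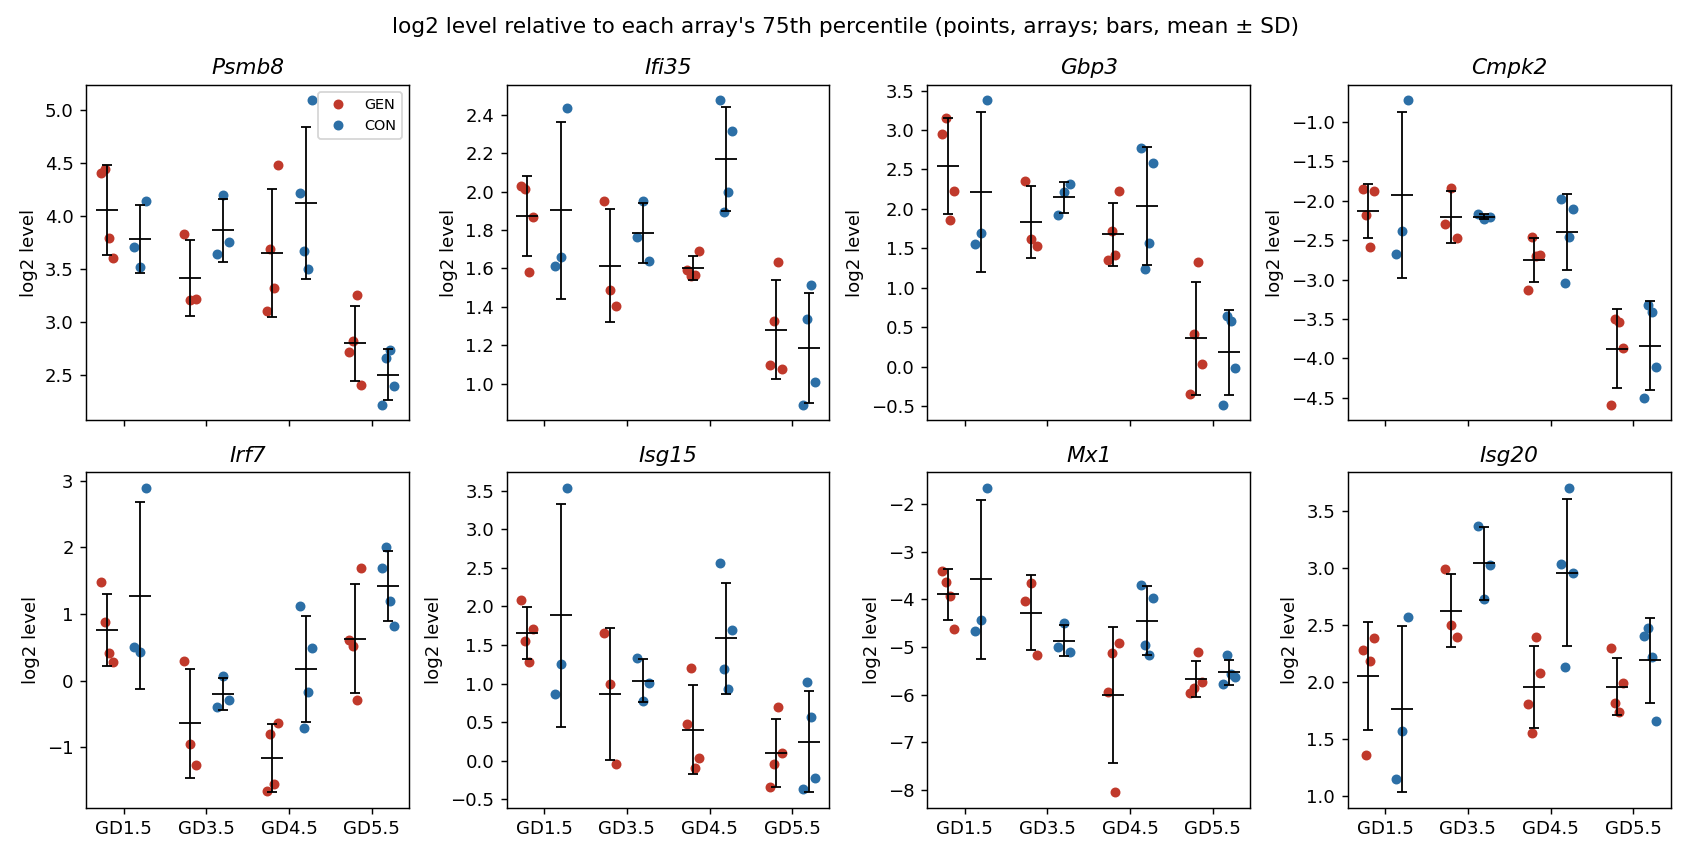
Log2 level relative to the array's 75th percentile for Psmb8, Ifi35, Gbp3, Cmpk2, Irf7, Isg15, Mx1 and Isg20 by gestation day, GEN left of CON, with points for arrays and bars for mean and SD (n = 3 or 4). At GD4.5 the GEN points of Ifi35 (1.56 to 1.69) lie below all CON points (1.89 to 2.48).

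Between days, unlike between exposures, genes of the set passed the test. In CON uteri 21 of the 33 genes tested fell from GD4.5 to GD5.5 and none rose (30.6% of all genes were called, 14.3% as lower). The median over the 33 genes was -1.28, against 0.02 over all genes. The GD5.5 and GD4.5 arrays did not overlap, GD5.5 lower, in 19 genes, as in 13% of all genes. Slides 5 to 8 each held CON arrays of both days, and 32, 25, 30 and 31 of the 33 genes were lower at GD5.5 on slides 5, 6, 7 and 8. Of the genes called, second probes gave smaller falls for Irf9 (-0.71), Oas2 (-0.97), Ifih1 (-0.78), Cmpk2 (-0.96) and Ifi44 (-0.29). Those of Psmb8 (-1.74) and Irf1 (-0.91) gave larger ones. The second probes of Oas2, Ifih1 and Cmpk2 were well above background on 15, 16 and 17 arrays, and that of Ifi44 on 28.

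The antigen-processing genes all fell in CON uteri. Psmb8 stood at 2.22, 2.67, 2.74 and 2.40 at GD5.5, against 4.22, 3.67, 3.5 and 5.09 at GD4.5, with no overlap. Its level was 3.06-fold lower at GD5.5 (log2 -1.61, SE 0.31, adjusted p = 0.00054), and within slides the change was between -2.69 and -0.84 (probe at chr17:32280725-32281049, plus strand). Tap1 fell by 1.31 on the log2 scale (SE 0.40, adjusted p = 0.0164) and Psmb9, another immunoproteasome subunit, by 1.12 (SE 0.39, adjusted p = 0.0303).

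Among the effectors, Ifi35 had the smallest p of the 33 genes: it stood at 0.89, 1.34, 1.51 and 1.01 at GD5.5, against 2.48, 1.89, 2.00 and 2.31 at GD4.5 in CON uteri. The days did not overlap, and the level was 1.97-fold lower at GD5.5 (log2 -0.98, SE 0.19, adjusted p = 0.00044). Cmpk2, a mitochondrial nucleotide kinase next to Rsad2 in the genome, stood at -4.50, -3.33, -3.42 and -4.11 at GD5.5, against -1.98, -3.05, -2.46 and -2.10 at GD4.5 (log2 -1.44, SE 0.35, adjusted p = 0.00325). Rtp4, Bst2 and Ifi44 fell by 1.49, 0.90 and 1.28, with adjusted p of 0.0052, 0.0107 and 0.0352. Bst2 encodes tetherin, which holds budding virus at the cell surface. Rsad2 itself (-0.66, SE 0.41, adjusted p = 0.254) and Isg20 (-0.77, SE 0.31, adjusted p = 0.068) were not called.

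The guanylate-binding proteins, GTPases that attack pathogen-containing vacuoles, were among the largest falls in CON uteri. Gbp3 stood at -0.48, 0.65, 0.58 and -0.02 at GD5.5, against 2.77, 1.24, 1.57 and 2.58 at GD4.5, with no overlap (log2 -1.86, a 3.63-fold lower level, SE 0.43, adjusted p = 0.0022; probe at chr3:142466047-142466106, plus strand). Gbp2 stood at -0.47, 0.16, 0.61 and 0.06 at GD5.5, against 2.11, 1.16, 1.62 and 2.29 at GD4.5 (log2 -1.71, SE 0.41, adjusted p = 0.0033). Mx2 fell by 1.28 (SE 0.43, adjusted p = 0.0263), while Mx1, at -1.09 (SE 0.60, adjusted p = 0.186), was not called and was not well above background on 2 of the GD5.5 CON arrays.

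In the oligoadenylate synthetase family 2 of 5 genes fell in CON uteri. Oasl2, a synthetase-like protein with ubiquitin-like domains, stood at -0.27, 0.95, 0.78 and 0.26 at GD5.5, against 3.02, 1.61, 1.91 and 2.48 at GD4.5, with no overlap and a 3.54-fold lower level (log2 -1.83, SE 0.38, adjusted p = 0.0011). Oas2 fell by 1.77 (SE 0.47, adjusted p = 0.0067), with GD5.5 values of -1.84, -0.90, -1.22 and -1.58. Oas1a (-0.98, adjusted p = 0.0577), Oasl1 (-0.90, adjusted p = 0.0621) and Oas3 (-1.55, adjusted p = 0.097) missed the threshold, and Oas3 was not well above background on CON 1 at GD5.5.

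Of the sensors, Zbp1 fell by 2.35 (SE 0.63, adjusted p = 0.0068), the lowest difference of the 33 genes: it stood at -2.93, -1.59, -1.38 and -2.54 at GD5.5, against 1.2, -0.60, -0.61 and 0.98 at GD4.5 in CON uteri. Ifih1, the RNA sensor MDA5, fell by 1.31 (SE 0.34, adjusted p = 0.0061), although its days overlapped by CON 2 at GD5.5 (-0.80) and CON 2 at GD4.5 (-0.82). Dhx58, a helicase that tunes MDA5 and RIG-I, had -1.29 (SE 0.51, adjusted p = 0.0571), and Eif2ak2 had -0.35 (SE 0.19, adjusted p = 0.163).

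Of the transcription factors, Irf9 fell by 1.27 (SE 0.29, adjusted p = 0.0020), Stat2 by 0.96 (SE 0.26, adjusted p = 0.00715) and Irf1 by 0.61 (SE 0.19, adjusted p = 0.0172) in CON uteri. Irf7 ran the other way, at 1.69, 2.00, 1.19 and 0.82 at GD5.5, against 1.11, -0.71, -0.18 and 0.49 at GD4.5 (1.25, SE 0.51, adjusted p = 0.068). Of the Isg15 group, Usp18 fell by 1.76 (SE 0.47, adjusted p = 0.0064) and Isg15 by 1.34 (SE 0.48, adjusted p = 0.0382), with GD5.5 values of -0.37, 1.02, 0.57 and -0.23, while Trim25 had 0.12 (SE 0.14, adjusted p = 0.575). Ifit1 fell by 1.63 (SE 0.52, adjusted p = 0.0212), and neither Ifit3 (-1.33, adjusted p = 0.121) nor Ifit2 (-0.22, adjusted p = 0.628) was called.

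In GEN uteri 5 of the 33 genes changed from GD4.5 to GD5.5, 4 of them lower (21.7% of all genes were called, 8.96% as lower and 12.7% as higher), and the median was -0.63. Gbp3 stood at -0.34, 0.42, 1.33 and 0.03 at GD5.5, against 1.35, 1.72, 1.41 and 2.23 at GD4.5 (log2 -1.32, SE 0.43, adjusted p = 0.0312), with GEN 3 at GD5.5 just under the lowest GD4.5 array. Ifih1 stood at -1.88, -1.17, -0.88 and -1.80 at GD5.5, against -0.60, -0.41, -0.45 and 0.32 at GD4.5 (log2 -1.15, SE 0.34, adjusted p = 0.0216). Cmpk2 stood at -4.59, -3.50, -3.54 and -3.87 at GD5.5, against -3.13, -2.47, -2.70 and -2.69 at GD4.5 (log2 -1.13, SE 0.35, adjusted p = 0.0246). For Gbp3, Ifih1 and Cmpk2 each GD5.5 array lay below each GD4.5 array. These genes were picked because they were called, so this is not a count over the set. Gbp2 fell by 1.18 (SE 0.41, adjusted p = 0.0449), with GEN 3 at GD5.5 (1.64) inside the GD4.5 range. Second probes of Ifih1 and Cmpk2, well above background on 16 and 17 arrays, gave -0.46 and -0.76.

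Irf7 was the single gene that rose in GEN uteri. It stood at 0.60, 0.52, -0.29 and 1.69 at GD5.5, against -1.65, -0.80, -1.56 and -0.64 at GD4.5, with no overlap, a 3.47-fold higher level (log2 1.79, SE 0.51, adjusted p = 0.0163). On the 2 slides that held both days in GEN it was 1.32 and 3.25 (probe at chr7:137682028-137682378, minus strand). Psmb8 had -0.85 (SE 0.31, adjusted p = 0.0538) and Ifi35 had -0.32 (SE 0.19, adjusted p = 0.219) in GEN. That 21 genes were called in CON and 5 in GEN does not show that the exposures differ: the interaction, given above, called none of the 33.

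The GEN calls depended on single arrays. Leaving out GEN 4 at GD5.5 left 0 of the 33 called, with Irf7 at an adjusted p of 0.0669, and leaving out GEN 1 at GD5.5 or GEN 4 at GD4.5 left 1 each. Leaving out GEN 2 at GD5.5 or GEN 3 at GD4.5 left 3 each. In CON the count was 14 to 24 whichever array was left out, and 13 of the 21 genes (Bst2, Gbp2, Gbp3, Ifi35, Ifih1, Irf9, Oas2, Oasl2, Psmb8, Rtp4, Stat2, Usp18 and Zbp1) were called under each of the 17 other settings run. Tap1, Irf1, Ifit1, Mx2, Psmb9, Ifi44 and Isg15 lost the call on leaving out 1 array or more, and Cmpk2 under 1 other setting.

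**Figure D4:**
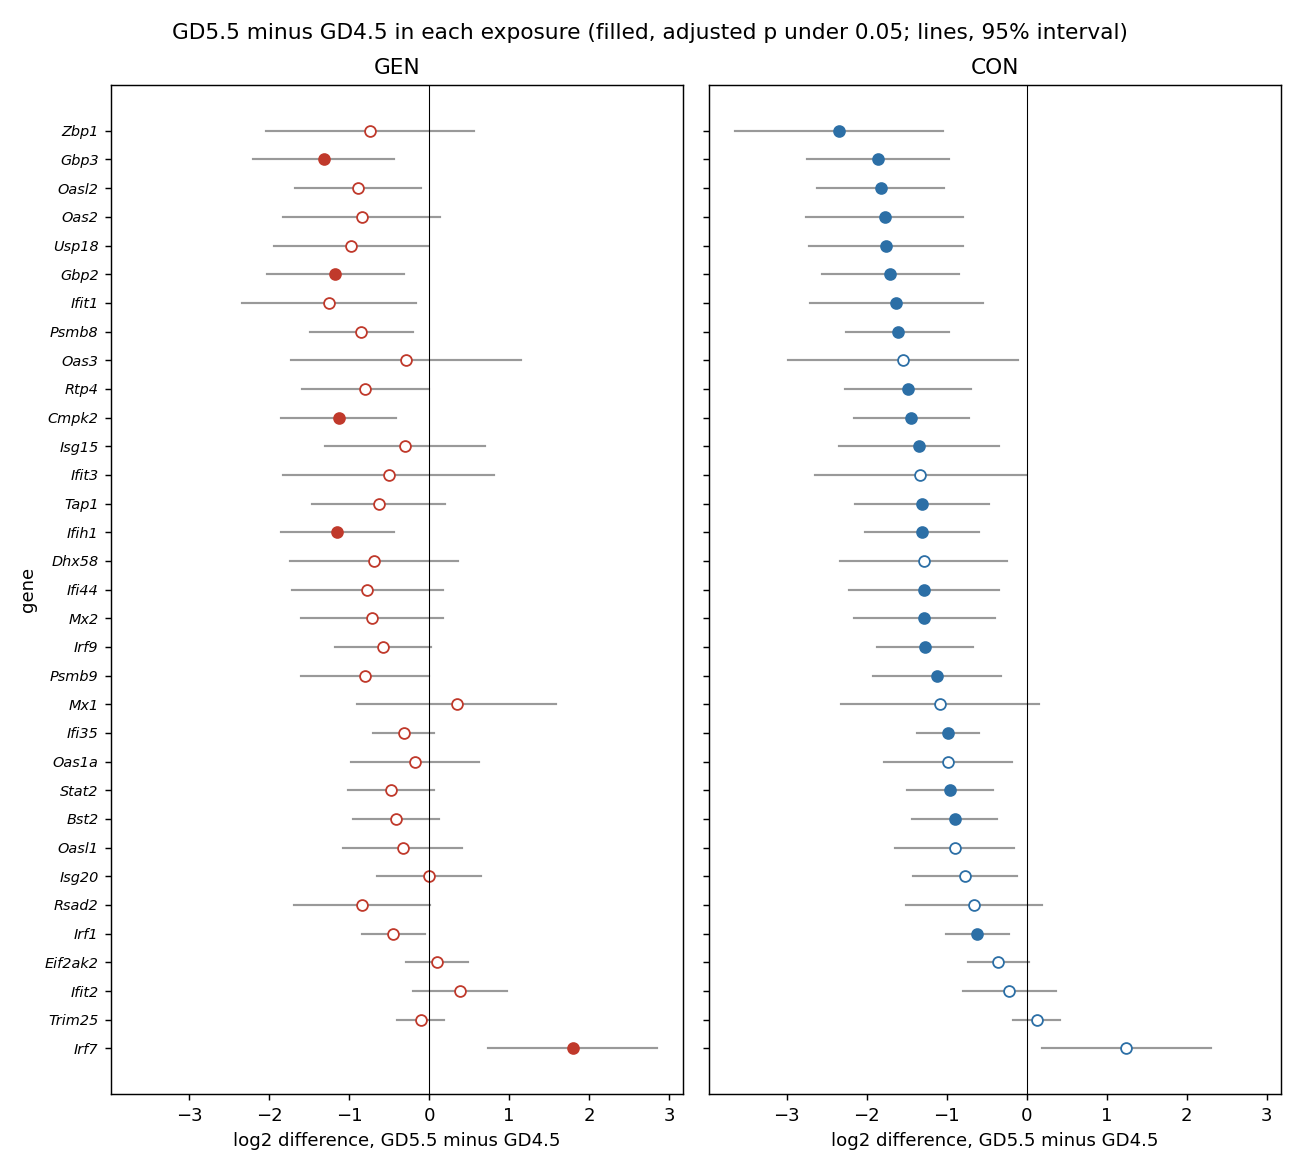
GD5.5 minus GD4.5 log2 difference with 95% interval for each of the 33 genes tested, GEN panel left of the CON panel, filled where the adjusted p was under 0.05. In GEN 5 points are filled, Irf7 alone to the right of 0, and in CON 21 are filled, all to the left of 0.

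From GD1.5 to GD3.5, 2 of the 33 genes fell in GEN uteri (4.92% of all genes called, 2.41% as lower), with a median of -0.68, and both are oligoadenylate synthetases. Oas1a stood at 1.23, -0.23 and -0.43 at GD3.5, against 2.29, 1.41, 1.26 and 1.64 at GD1.5 (log2 -1.46, SE 0.42, adjusted p = 0.0423), with no overlap. Oas2 stood at -0.08, -1.75 and -1.99 at GD3.5, against 1.14, 0.21, -0.09 and 0.75 at GD1.5 (log2 -1.78, SE 0.51, adjusted p = 0.0451). A second probe of Oas2 gave -1.86. The next were Oas3 (-2.55, SE 0.75, adjusted p = 0.0504) and Irf1 (-0.65, SE 0.21, adjusted p = 0.0702). Neither call held when GEN 1, GEN 2 or GEN 4 at GD1.5, or GEN 3 or GEN 4 at GD3.5, was left out. Over the same days in GEN uteri, all 8 macrophage and dendritic cell markers were below 0 (median -0.79, 1 called, Fcgr1 at -1.67, adjusted p = 0.022), with array medians from -0.14 to 0.57 at GD3.5, against 0.57 to 1.42 at GD1.5. Of the 6 neutrophil markers 4 were below 0 (median -3.08, 1 called, Cxcr2 at -3.63, adjusted p = 0.0315), with array medians from -1.59 to 3.04 at GD3.5, against 1.04 to 4.13 at GD1.5. Of the 10 natural killer and T cell markers 3 rose (median 0.84). The part of these cells in the result was not tested.

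In CON uteri Oasl1 fell from GD1.5 to GD3.5 (2.38% of all genes called, 1.34% as lower): it stood at -1.97, -2.05 and -1.99 at GD3.5, against -0.56, -1.21 and 0.71 at GD1.5 (log2 -1.65, SE 0.41, adjusted p = 0.0338). The GD3.5 arrays were close together and below all GD1.5 arrays. Isg20 had 1.28 (SE 0.36, adjusted p = 0.0624), with 3.36, 2.73 and 3.03 at GD3.5, against 1.14, 1.57 and 2.57 at GD1.5. Oas3 had -2.34 (SE 0.80) and Oas2 -1.44 (SE 0.55). The median of -0.59 over the 33 genes rested on CON 3 at GD1.5: without that array it was -0.02, and on the 1 slide that held both days it was 0.06. The call of Oasl1 was lost without CON 1 or CON 3 at GD1.5 and without any 1 of the GD3.5 arrays, and held without CON 2 at GD1.5. Without CON 3 at GD1.5, Isg20 was called in its place (1.68, adjusted p = 0.0196). In CON uteri the macrophage markers had a median of -0.25 over these days, with all 8 below 0, none called in limma's test and 1 at an unadjusted p under 0.05, and 2 of the 10 natural killer and T cell markers rose (median 1.12).

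The rest of the pathway was read from 8 lists of 125 genes, of which 112 had a probe. None was called in limma's test between GEN and CON on any day, and an unadjusted p under 0.05 was found for 3 of the 105 tested at GD1.5 (6.14% of all genes), 7 of 105 at GD3.5 (5.54%), 10 of 105 at GD4.5 (9.54%) and 3 of 103 at GD5.5 (5.4%), numbers near or below the share over all genes. At GD4.5, 85 of the 105 were below 0 (56.7% of all genes) with a median of -0.18. The count was also 85 of 105 at GD3.5 (55.4% of all genes), with a median of -0.15. It was 34 of 105 at GD1.5 (52.4%) and 41 of 103 at GD5.5 (51.3%), with medians of 0.12 and 0.09. Ifi205 and Ifi203, nuclear DNA-binding proteins of the p200 family, had the smallest p of the listed genes (-1.88, SE 0.40, adjusted p = 0.0535, and -3.95, SE 1.12, adjusted p = 0.179). From GD4.5 to GD5.5, 6 of 103 rose and 47 fell in CON uteri (30.6% of all genes called, 14.3% as lower). In GEN uteri 5 rose and 17 fell (12.7% of all genes called as higher and 8.96% as lower). Those shares also apply to the counts by list that follow.

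Of the 19 interferon genes listed, 15 had a probe, 5 of these (Ifna2, Ifna4, Ifna11, Ifnb1, Ifnk) were well above background on no array, and 5 were on all 29. Probes of the near-identical alpha interferon genes may bind one another's transcripts. Ifng, encoding interferon gamma, was well above background on all 29 arrays, and it fell by 1.77 from GD4.5 to GD5.5 in CON uteri (SE 0.62, adjusted p = 0.0331), with -0.94 in GEN (SE 0.62, adjusted p = 0.282). All 6 receptor genes listed were well above background on all 29 arrays. Of the receptors 3 fell in CON, among them Ifnlr1, the lambda interferon receptor (-0.90, SE 0.14, adjusted p = 8.5e-05), and 2 fell in GEN, Ifnlr1 (-0.49, SE 0.14, adjusted p = 0.0203) and Ifnar1 (-0.26, SE 0.08, adjusted p = 0.027). Jak1 rose in CON (0.87, SE 0.15, adjusted p = 0.00016) and in GEN (0.53, SE 0.15, adjusted p = 0.0155), while Jak2 and Stat3 fell in CON (-0.93 and -0.94).

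Of the inhibitors of the pathway, 5 of 8 fell in CON between GD4.5 and GD5.5, among them Socs1 (-0.62, SE 0.14, adjusted p = 0.0018) and Socs3 (-1.03, SE 0.26, adjusted p = 0.0051), and 1 of 8 fell in GEN, the repressor Irf2 (-0.65, SE 0.14, adjusted p = 0.0034). Among upstream sensors and adaptors 3 rose and 4 fell in CON, where 30.6% of all genes were called, 14.3% as lower. Tlr3, the endosomal receptor for double-stranded RNA, rose by 1.89 in CON (SE 0.28, adjusted p = 3.7e-05) and by 1.24 in GEN (SE 0.28, adjusted p = 0.0041). The cytoplasmic sensor Ddx58 (RIG-I) fell by 1.34 in CON (adjusted p = 0.0009) and by 0.82 in GEN (adjusted p = 0.0355). Of the interferon gamma GTPases and chemokines 5 of 13 fell in CON, among them Igtp (-2.15, SE 0.48, adjusted p = 0.0017), and 1 of 13 in GEN, Gbp7 (-1.17, SE 0.32, adjusted p = 0.014). Of the MHC class I presentation genes 5 of 8 fell in CON and 3 of 8 in GEN. Of the other interferon-induced genes 22 of 38 fell and 2 rose in CON, against 9 and 2 in GEN, with Nmi, a partner of Ifi35, at -1.24 in CON (adjusted p = 8.7e-05) and -0.91 in GEN (adjusted p = 0.0035).

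In whole uterus, fewer cells of a type and less RNA per cell cannot be told apart, and some cell markers moved with these genes. From GD4.5 to GD5.5 in CON uteri, 7 of 8 macrophage and dendritic cell markers fell (median -1.32), among them the complement gene C1qa (-1.78, adjusted p = 0.00071), and 4 of 8 epithelial markers fell (median -1.04). In GEN uteri 0 of 8 macrophage markers were called in limma's test and 1 had an unadjusted p under 0.05, though all 8 were below 0 (median -0.56), and 2 of 8 epithelial markers fell. Of all genes, 14.3% were called as lower in CON and 8.96% in GEN between these days. Centred on each gene's mean, the macrophage markers had array medians from -1.33 to -0.07 in GEN and from -1.66 to -0.59 in CON at GD5.5, and from -0.58 to 0.79 in GEN and from -0.04 to 0.92 in CON at GD4.5. On that measure the mean over CON arrays was lower at GD5.5 for leukocyte (-0.65 against 0.13) and plasmacytoid dendritic cell markers (-1.12 against 0.09). It was also lower for gland (0.20 against 1.72) and smooth muscle markers (-0.18 against 0.27). It was not lower for natural killer and T cell (0.14 against 0.03) or neutrophil markers (0.12 against 0.03). Nor was it for endothelial (0.25 against -0.04) or stromal markers (0.16 against 0.12). Between GEN and CON at GD4.5, all 8 macrophage markers were below 0 (median -0.33, none called and 0 at an unadjusted p under 0.05), as were 7 of 8 epithelial markers (median -0.46, none called and 2 at an unadjusted p under 0.05) and all 7 gland markers (median -2.11, 1 called). By the mean of the array medians at GD4.5, natural killer and T cell markers were higher in GEN (0.13 against 0.03 in CON). So were plasmacytoid dendritic cell (0.47 against 0.09) and stromal markers (0.28 against 0.12). Leukocyte (0.07 against 0.13), neutrophil (-0.28 against 0.03) and smooth muscle markers (-0.03 against 0.27) were lower in GEN, and endothelial markers near level. At GD5.5, where the interferon response genes centred on 0, the 8 macrophage markers were all above 0 (median 0.47). All 8 macrophage and 8 epithelial markers were well above background on all 29 arrays, and their part in the result was not tested.

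**Figure D5:**
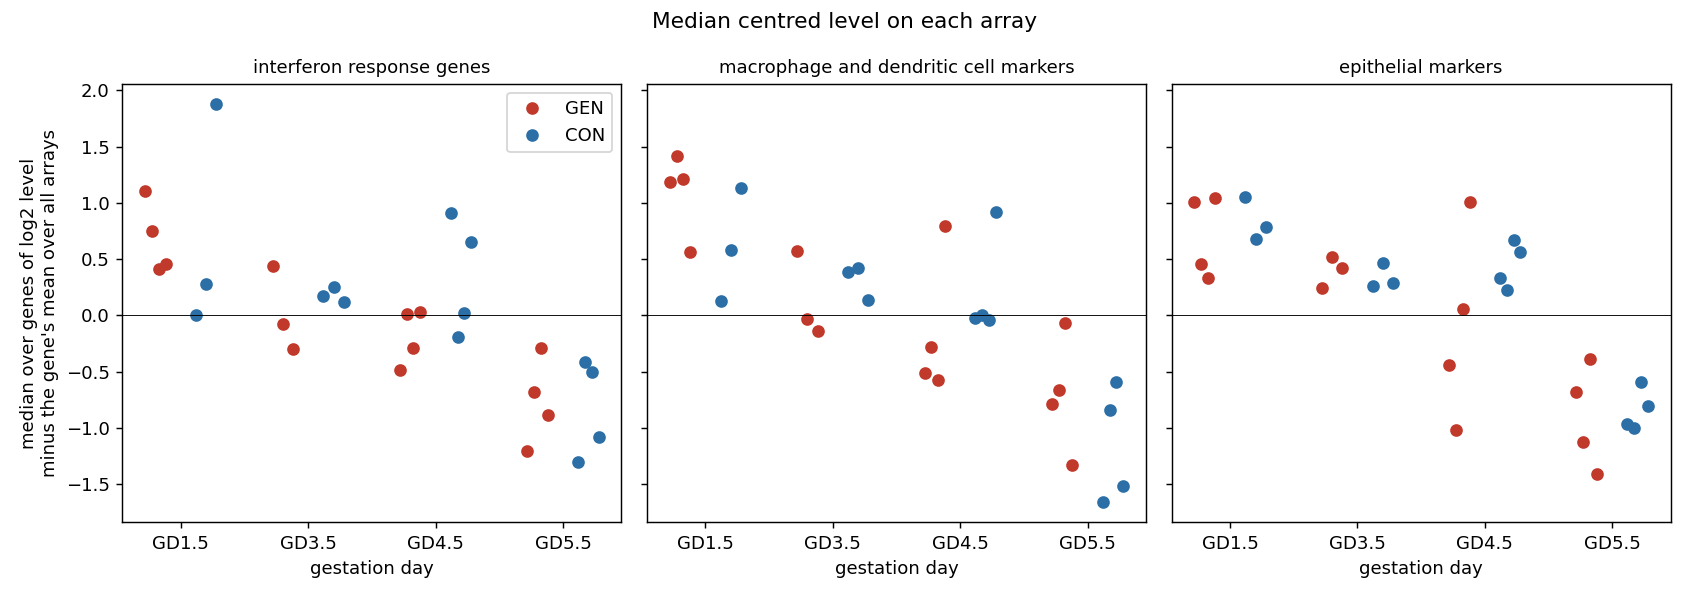
Median centred log2 level of the 34 interferon response genes, of 8 macrophage and dendritic cell markers and of 8 epithelial markers on each array, by gestation day, GEN left of CON. The interferon response medians lie between -1.30 and -0.29 at GD5.5, and the macrophage medians between -1.66 and -0.07.

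After the mean of each group was taken off, the genes varied together from array to array. Over the 31 genes well above background on all 29 arrays, the median of the 465 pairwise correlations was r = 0.70, from -0.14 to 0.98, and 7 pairs were negative. With the median of the other genes of the set, Oasl2 correlated most closely (r = 0.96), followed by Rtp4 (0.95) and Stat2 (0.94), and Trim25 least (0.20), with Isg20 at 0.39 and Irf1 at 0.52. The same measure had a median of -0.08 over 16304 genes and 0.62 over 35 other interferon-induced genes. The array medians of the set correlated at r = 0.66 with those of the macrophage and dendritic cell markers, at 0.70 with plasmacytoid dendritic cell markers, at 0.54 with natural killer and T cell markers and at 0.08 with epithelial markers. On the plasmacytoid list Siglech was well above background on 19 arrays, and Tcf4, Spib, Ly6d, Klk1 and Runx2 on all 29. Whether these genes mark that cell type alone in the uterus was not tested. These correlations, over 29 arrays that share slides and scaling, are descriptions.

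Set beside the change with day, among genes with a window, the ISRE core lay in 7 of the 16 that fell in CON uteri between GD4.5 and GD5.5 (43.8%) and in 5 of the 10 that were not called (50%). The cores of Isg15, Stat2, Gbp2, Gbp3, Ifit1 and Bst2 shown above belong to genes that fell, and that of Oas1a to a gene that was not called.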

How the data were processed

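Total RNA (500 ng) was labelled with Cy3 and hybridised to 1-colour Agilent arrays, per the labels' protocols, and the deposited scanner files hold the processed spot intensity of each array, made with Feature Extraction 9.5 per the submitters' processing notes. The deposited value table of the series held the same intensity and was not used further. From these, log2 intensity minus the log2 of the array's 75th percentile was computed, without control spots and outlier spots, and spots of a probe were averaged. The brightest of 41174 probes stood for each gene, named by accession, symbol or synonym through RefSeq where matched. A gene entered a comparison if at least 3 arrays of its groups measured it well above background, and was tested with limma 3.58.1 (R 4.3.3), 1 fit over the 8 groups of 29 arrays, with Benjamini-Hochberg adjustment over all genes tested. The fit was also run on simulated arrays with independent noise and no day or slide effects, so that run does not test the results here.

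The members, gene lists and tests were chosen with earlier results of these data known. Named genes were all members called, the smallest p where few were called, 1 to 4 per role, and up to 4 called genes per pathway list. The number of arrays limits the precision. Alternatives were normexp background correction, quantile and median scaling, a stricter background filter, the mean over probes, slide as fixed or random block, a replicate block and leaving out each array. Same-numbered GEN and CON arrays of GD5.5 deviated together from their group means (4 pairs, r from 0.33 to 0.43, 3 of them on 1 slide), a pairing taken from the data and not from the labels, so a block on that day was added.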

Additional observations from a re-analysis of the deposited data

Results flagged for a closer look

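In each group of 4 arrays, a gene was marked where its highest or lowest array lay far from the nearest other by Dixon's test. Of 175 sets tested, which held more than the 34 genes in the 5 groups, 4 were marked. Chance alone marks about 1 in 20 of independent sets, whereas these genes varied together. Irf9 stood at 0.51 on GEN 1 at GD4.5, against 1.15 to 1.25 on the other GEN arrays of that day. Oas1a stood at 1.30 on GEN 2 at GD4.5, against 0.88 to 0.95 on the others, and Gbp2 at 2.49 on GEN 4 at GD4.5, against 1.47 to 1.64. Zbp1 stood at -0.60 on GEN 3 at GD5.5, against -2.04 to -1.88 on the others.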

How the results depend on the processing

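Of 647 values recomputed under other settings, 610 kept their direction and side of the threshold, 28 lost and 8 gained a call, and 1 reversed; with each array left out in turn, 644 of 704 kept them. With normexp background correction 5 genes of the set were called between GEN and CON at GD5.5, 0 from GD1.5 to GD3.5 in GEN and 0 in CON, and 13 from GD4.5 to GD5.5 in GEN, where Cmpk2 reversed to 0.44. After normexp the 1st percentile was 244 to 535 on 3 GD5.5 GEN arrays, against 55.6 to 398 on the other 26. Background subtraction with an offset, chosen after seeing the data, gave 4 genes from GD1.5 to GD3.5 in GEN and 3 in CON. With slide as a fixed block, which absorbs GD3.5 CON 3, the counts were 0 from GD1.5 to GD3.5 in GEN and in CON and 0 from GD4.5 to GD5.5 in GEN. The mean over probes gave 2 in that last comparison.

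In the comparisons other than GEN against CON at GD5.5, not every same-numbered pair had r over 0.1. The labels give no pairing, so whether those arrays share more than a number cannot be told. At GD4.5 r ran from -0.10 to 0.49 (3 of 4 pairs over 0.1), the highest being above that of any GD5.5 pair. Between GD4.5 and GD5.5 it ran from -0.27 to 0.33 in GEN (1 of 4) and from -0.15 to 0.33 in CON (2 of 4). With the replicate block 0 genes were called from GD1.5 to GD3.5 in GEN and 2 in CON, 4 between GD4.5 and GD5.5 in GEN and 22 in CON, and 0 between GEN and CON on any day. A block on the GD5.5 arrays alone, chosen after seeing the data, also gave 0 of the set at GD5.5 and changed no call of the set.

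Leaving out 1 array gave 0 to 3 genes from GD1.5 to GD3.5 in GEN, 0 to 1 in CON, 0 to 6 between GD4.5 and GD5.5 in GEN, 14 to 24 in CON, and 0 to 1 for the average over days (1 without GD5.5 GEN 4). The median difference then ran from -0.37 to 0.56 at GD1.5, from -0.74 to 0.16 for the step from GD1.5 to GD3.5 in the GEN to CON difference, and from -1.04 to -0.021 (without GD1.5 CON 3) between GD1.5 and GD3.5 in CON. The cause was not tested.

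Over all genes, the calls between GEN and CON were 20 at GD1.5 (5 to 39 under other settings, 1 to 34 leaving out an array), 21 at GD3.5 (6 to 63 and 4 to 18), 25 at GD4.5 (14 to 49 and 4 to 87), 0 at GD5.5 (0 to 9691 and 0 to 234) and 243 on average (135 to 312 and 166 to 351). From GD1.5 to GD3.5 they were 1004 in GEN (486 to 1317 and 345 to 1162) and 491 in CON (118 to 768 and 155 to 362), and from GD4.5 to GD5.5 4540 in GEN (1015 to 11743 and 2300 to 5754) and 6642 in CON (4504 to 6893 and 4958 to 7443). Signal over background limits Mx1, Oas3 and Oas1g.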

Other observations

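On the list of interferon gamma GTPases and chemokines, all 14 genes tested had a higher mean in GEN than in CON uteri at GD1.5, with a median log2 difference of 1.05, while 52.4% of all genes were below 0. None was called in limma's test, and 2 had an unadjusted p under 0.05 (6.14% of all genes). Most markers of neutrophils, leukocytes and macrophages also had higher means in GEN at that time, with none called. Natural killer and T cell markers did not share this, with means of the array medians of -0.74 in GEN and -0.67 in CON. Plasmacytoid dendritic cell markers were level (0.34 and 0.33). All 6 neutrophil markers were above 0 with a median of 2.94, and 5 had an unadjusted p under 0.05, with array medians from 1.04 to 4.13 in GEN and from -3.77 to 2.13 in CON. CON 1 stood apart at -3.77, while CON 2 (1.57) and CON 3 (2.13) lay within the GEN range. The antimicrobial peptide gene Camp, at 3.68, had the smallest p of the 6 (SE 1.08, adjusted p = 0.335). All 4 general leukocyte markers were above 0 (median 0.60, 1 with an unadjusted p under 0.05), as were 7 of 8 macrophage and dendritic cell markers (median 0.48, 0 with an unadjusted p under 0.05). The part of these cells in the result was not tested.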
